A study of Mus musculus with 6 samples.

Results

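The genes described here are 8 amino acid transporters of the mouse cumulus-oocyte complex, the oocyte together with the cumulus granulosa cells that surround it. They are the heavy chain Slc3a2, its light chains Slc7a5, Slc7a6 and Slc7a11, the sodium-coupled neutral amino acid transporters Slc38a1, Slc38a2 and Slc38a3, and the neutral amino acid exchanger Slc1a5. A probe set, the group of array probes read as 1 value, was assigned to a transporter where the platform annotation gave that symbol and no other. This gave 15 probe sets for the 8 genes, of 34945 probe sets for 18193 genes in all.

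Amino acids reach a growing oocyte along a pair of routes, its own membrane carriers and gap junctions with the cumulus cells. In the mouse, Slc38a3 is known as a cumulus transcript, and oocytes take up little alanine or histidine without their cumulus cells. Slc3a2, the heavy chain of CD98, carries no amino acid itself. It brings a light chain of the Slc7 family to the plasma membrane, and the light chain decides the cargo: large neutral amino acids with Slc7a5, cationic and neutral ones in exchange with Slc7a6, and cystine in exchange for glutamate with Slc7a11, whose cystine feeds glutathione synthesis.

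Pooled complexes of immature wild-type females were hybridised as biotinylated cRNA to Affymetrix arrays, with 2 arrays in each of 3 groups. Every female had received equine chorionic gonadotropin (eCG), which makes follicles grow, for 48 h, and human chorionic gonadotropin (hCG), the trigger of ovulation, was then absent or had acted for 8 h or 16 h. The labels' protocols place the complexes without hCG in the ovary and those of both hCG groups in the oviduct, so hormone and place of collection cannot be told apart. The 8 h site is uncertain, since mouse complexes mostly reach the oviduct later than this. The summed intensity of oviduct epithelium markers was 1570 to 1660 at 8 h, against 2780 to 3110 without hCG. This sum cannot decide the site, since these markers also gave signal, and a higher sum, in the complexes labelled as ovarian. Strain, exact age and the number of animals per pool are not given in the labels, and nothing says that replicates came from separate pools of animals, so the spread behind each p-value is that between these arrays alone and may be technical. The label of the complexes without hCG calls them expanded, although the expansion genes Ptgs2, Ptx3, Tnfaip6 and Has2 were at their lowest there.

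The unit throughout is the log2 intensity of a probe set, and a change of 1 is a doubling. Array medians lay between 6.14 and 6.27, and the arrays of a group correlated at between 0.991 and 0.996 (Pearson's r across probe sets, which are not independent). Changes are differences of log2 group means ± SE from limma, and a change is called where the Benjamini-Hochberg adjusted p over the 27022 probe sets tested is under 0.05. At that threshold 33.9% of probe sets were called at 8 h against no hCG, 18.2% at 16 h against 8 h and 37.3% at 16 h against no hCG. These comparisons share arrays.

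Of the markers of cumulus cells, 9 of 10 were tested, and at 8 h 4 rose, 3 fell and 2 were not called. The expansion genes Ptgs2, Ptx3, Tnfaip6 and Has2 rose by log2 changes of 6.24, 5.98, 4.59 and 3.24, the granulosa genes Inhbb, Foxl2 and Fshr were lower, and Inha and Amh were not called. The summed linear intensity of the 9 was 47900 to 51000 without hCG, 34800 to 45000 at 8 h and 25000 to 28100 at 16 h. Inha and Inhbb were the brightest of the 9 without hCG (log2 means 14.27 and 14.24), and at 16 h they averaged 13.57 and 10.28. The oocyte markers were all measured, 12 of 12, and 12 fell at 8 h against no hCG. Their sum was 47300 to 55300 without hCG, 10800 to 11500 at 8 h and 14500 to 17300 at 16 h. The 12 leukocyte markers summed to between 4050 and 4220 without hCG, 3530 and 3710 at 8 h and 8900 on both arrays at 16 h. At 8 h against no hCG 1 of the 12 rose and 0 fell, and 11 rose from 8 h to 16 h. The marker with the highest mean over the 6 arrays, Laptm5, weighs most in the sum without hCG and at 8 h and was not called in any comparison. Theca and stroma markers (6 of 7 tested) summed to 2500 to 2560, 1150 to 1430 and 681 to 738 at these times, and oviduct epithelium markers (4 of 6 tested) reached 7980 to 9280 at 16 h. Of the oviduct list, Krt8 and Cdh1 fell at 8 h against no hCG, while Ovgp1 (log2 change −0.86 ± 0.50) and Epcam were not called. Ovgp1, Krt8 and Cdh1 rose from 8 h to 16 h and Epcam was not called. At 16 h against no hCG, Cdh1 and Epcam were not called. Krt8 had the highest mean of the oviduct markers tested in each group (10.64, 9.70 and 12.14) and weighs most in their sum. The 2 endothelium markers tested, of 5, summed to 166 to 193 without hCG, 447 to 528 at 8 h and 525 to 544 at 16 h, and 1 of them rose at 8 h. The single erythrocyte marker tested was not called. Foxj1 and Pax8 of the oviduct list, Lum of the stroma list and Pecam1, Tek and Emcn of the endothelium list were under the limit for dim probe sets, a mean of 5.62. A log2 intensity has no true zero, so no marker can be called absent. The part of these shifts in the changes below was not tested. In pooled complexes, fewer cells of a type and less RNA of a marker gene per cell cannot be told apart.

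At 8 h of hCG the transporters moved apart. Slc7a11 and its heavy chain Slc3a2 rose, by log2 changes of 1.87 ± 0.17 and 1.39 ± 0.17, whereas Slc38a3 and Slc7a5 fell, with log2 changes of −2.35 ± 0.17 and −1.53 ± 0.20 (n = 2 arrays per group). Slc38a1, Slc38a2, Slc7a6 and Slc1a5 were not called. So 2 of 8 genes were higher and 2 lower, against 16.9% and 20.5% of the 13559 genes tested (37.4% either way). The median log2 change of the 8 was −0.06, beside −0.02 over all genes tested. The groups did not overlap for 7 of the 8 genes, as for 67.5% of all genes.

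Between 8 h and 16 h the light chains again had calls in both directions by the probe sets used. Slc7a11 fell, with a log2 change of −2.74 ± 0.17, and Slc7a6 was 2.01-fold lower. Slc1a5 and Slc7a5 rose by 0.72 ± 0.16 and 0.64 ± 0.20. The rise of Slc7a5 was near the threshold (limma, adjusted p = 0.0492), and the other Slc7a6 probe set was not called (−0.09 ± 0.15). Slc38a3 had a change of 0.04 ± 0.17 and was not called, like Slc3a2, Slc38a1 and Slc38a2. In this comparison 2 of 8 genes were higher and 2 lower, against 11.8% and 9.12% of all genes (20.9% either way), with a median log2 change of −0.08 beside 0.01. For 6 of the 8 the groups did not overlap, as for 61.8% of all genes.

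At 16 h against no hCG, Slc38a3, Slc7a5, Slc7a11 and Slc7a6 were lower, and Slc3a2 and Slc38a2 were higher. That is 4 of 8 lower and 2 higher, against 20.8% of all genes in either direction (41.6% in both together). The median log2 change was −0.65, beside −0.02 over all genes tested. These values depend on which probe set stands for Slc7a11 and Slc38a2, each of which has another probe set called the opposite way. With the other one for Slc7a11 alone, 3 genes were higher and 3 lower and the median was −0.08. With the other one for Slc38a2 alone, 1 was higher and 5 lower (median −0.83), and with both, 2 were higher and 4 lower (median −0.65). The groups did not overlap for 8 of the 8 genes, as for 69.1% of all genes. Slc38a3, Slc7a5 and Slc3a2 were called in the same direction at 8 h and at 16 h against no hCG, whereas the brighter Slc7a11 probe set was called higher at 8 h and lower at 16 h.

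**Figure D1:**
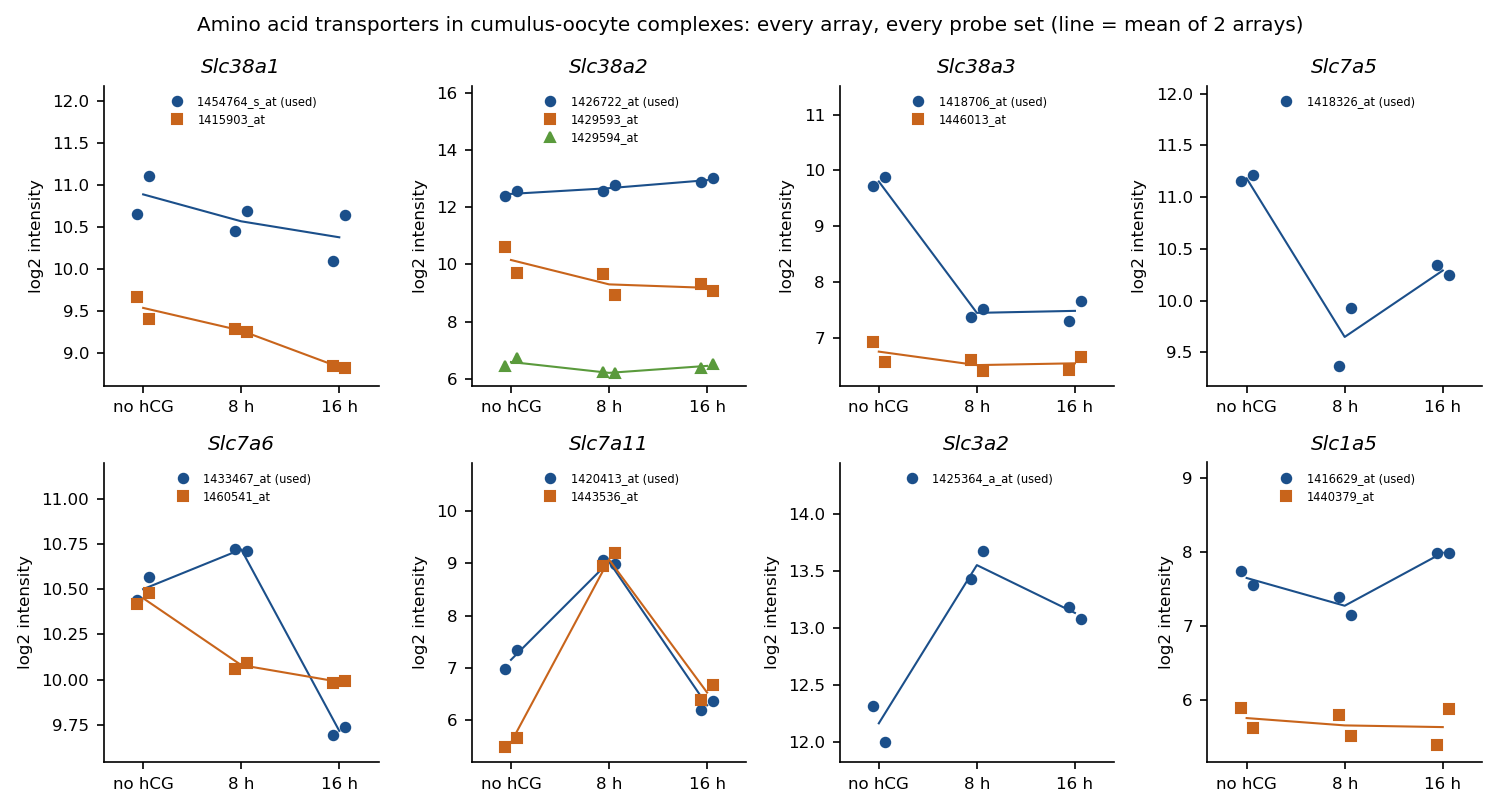
Log2 intensity (y axis) of every probe set of the 8 transporters on each of the 6 arrays, by group (x axis), with 2 points per group and a line through the group means; the probe set that stands for the gene is marked as used and the y scales differ between panels. By the probe set used, Slc38a3 sits between 9.72 and 9.89 without hCG and under 7.7 on the 4 hCG arrays. Both Slc7a11 probe sets peak at 8 h.

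Slc3a2 was measured by 1 probe set, 1425364_a_at. It read 12.31 and 12.0 without hCG, 13.43 and 13.67 at 8 h, and 13.18 and 13.08 at 16 h. All 4 hCG arrays lay above both arrays without hCG, and the 8 h arrays lay above the 16 h arrays. Expressed as a fold, Slc3a2 was 2.62-fold higher at 8 h than without hCG (adjusted p = 0.000201) and 1.97-fold higher at 16 h than without hCG (log2 change 0.98 ± 0.17, adjusted p = 0.00161). The log2 change from 8 h to 16 h, −0.42 ± 0.17, was not called after adjustment (adjusted p = 0.141), although these groups did not overlap. Every adjusted p given is from limma.

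Slc7a11 gave the largest rise among the 8 at 8 h and the largest fall afterwards. Its brighter probe set, 1420413_at, read 6.98 and 7.34 without hCG, 9.07 and 8.99 at 8 h, and 6.19 and 6.38 at 16 h. The 2 arrays at 8 h stood apart above the other 4, and the 16 h arrays lay below those without hCG. The signal was 3.66-fold higher at 8 h than without hCG (adjusted p = 3e-05) and 6.69-fold lower at 16 h than at 8 h (adjusted p = 1.19e-05). The second probe set, 1443536_at, read 5.48 and 5.67 without hCG, near the dim limit, 8.95 and 9.19 at 8 h, and 6.39 and 6.68 at 16 h. It rose by 3.49 ± 0.17 at 8 h, 11.3-fold, and then fell, with a log2 change of −2.54 ± 0.17 at 16 h against 8 h. The probe sets parted over the net change at 16 h against no hCG. By 1420413_at the gene was lower (log2 change −0.87 ± 0.17, adjusted p = 0.00313), and by 1443536_at higher (0.95 ± 0.17, adjusted p = 0.0019). The direction of Slc7a11 at 16 h against no hCG is therefore unsettled, and the peak at 8 h was measured by both.

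The promoter of Slc7a11 is shown because ATF4 and NRF2, a factor of amino acid shortage and a factor of oxidative stress, are known to drive this gene, and that of Slc3a2 because it rose beside it. RefSeq windows from 250 bases before to 50 bases after the gene start (GRCm38.p6) were held for 4 of the 8 transporters, Slc7a11, Slc3a2, Slc38a2 and Slc7a6, in 5 windows. Both strands were searched for TGATGNAAN (the ATF4 composite site), TGACNNNGC (NRF2), TGACGTCA (cAMP element), CACGTG (MYC E-box) and TTGCNNAA (C/EBP). Capitals mark every match. The first window is chr3:50443564-50443863 and the second chr19:8713848-8714147, both on the minus strand of the genome and printed 5′ to 3′ along the gene.
Slc7a11: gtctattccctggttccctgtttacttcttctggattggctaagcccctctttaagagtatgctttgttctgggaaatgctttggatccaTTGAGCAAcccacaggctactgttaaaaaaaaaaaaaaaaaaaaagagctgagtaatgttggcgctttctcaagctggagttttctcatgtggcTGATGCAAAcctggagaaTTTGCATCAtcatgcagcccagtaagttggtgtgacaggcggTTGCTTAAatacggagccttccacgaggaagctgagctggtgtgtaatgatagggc
Slc3a2: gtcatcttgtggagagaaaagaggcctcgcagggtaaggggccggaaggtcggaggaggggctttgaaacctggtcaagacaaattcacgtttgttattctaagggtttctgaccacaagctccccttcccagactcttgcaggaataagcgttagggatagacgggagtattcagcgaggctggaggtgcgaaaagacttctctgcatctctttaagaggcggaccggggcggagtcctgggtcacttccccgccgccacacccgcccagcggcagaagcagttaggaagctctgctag

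The Slc7a11 window held 4 matches, and the NRF2 letters were not among them. The ATF4 composite letters occurred as TGATGCAAA, with its first base at position −66 from the gene start, and as TTTGCATCA, a match on the opposite strand, at −48. The C/EBP letters occurred as TTGAGCAA, a match on the opposite strand, at −160, and as TTGCTTAA at −6. None of these matches overlapped another. Of 32851 promoter windows of this length, 3.95% held the ATF4 letters and 10.8% the C/EBP letters. The Slc3a2 window held 0 matches to the 5 motifs. Slc38a2 and Slc7a6 each held 1 kind of match, to the NRF2 letters, which 12.4% of windows held, as TGACGCGGC and as TGACGTGGC. The cAMP element and the E-box, held by 1.79% and 7.15% of windows, were not in these letters of the 5 windows. A match is a description of sequence and was not tested for binding.

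Slc7a5, the light chain that takes up leucine and other large neutral amino acids, went the other way from its heavy chain at 8 h. Its probe set 1418326_at read 11.15 and 11.21 without hCG, 9.37 and 9.93 at 8 h, and 10.34 and 10.25 at 16 h. The 3 groups did not overlap, with 16 h between the others. The signal was 2.89-fold lower at 8 h than without hCG (adjusted p = 0.000238) and 1.85-fold lower at 16 h than without hCG (log2 change −0.89 ± 0.20, adjusted p = 0.00559). The rise from 8 h to 16 h, 1.56-fold, was near the threshold (adjusted p = 0.0492). It was not called without replicate 1 of the 8 h group, the lower of its pair (log2 change 0.36), nor without replicate 1 (0.60) or replicate 2 (0.69) of the 16 h group.

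Slc7a6, which exchanges cationic for neutral amino acids, was not called at 8 h and was lower at 16 h. Probe set 1433467_at read 10.44 and 10.57 without hCG, 10.72 and 10.71 at 8 h, and 9.69 and 9.74 at 16 h. The 16 h arrays lay below the other 4. By this probe set the signal at 16 h was 2.01-fold lower than at 8 h (adjusted p = 0.00133) and 1.73-fold lower than without hCG (log2 change −0.79 ± 0.15, adjusted p = 0.00227). The second probe set, 1460541_at, read 10.42 and 10.48, then 10.06 and 10.09, then 9.98 and 9.99 in the same order. It was lower at 16 h than without hCG too (−0.46 ± 0.15, adjusted p = 0.0316), but its log2 change from 8 h to 16 h was −0.09 ± 0.15 and was not called. The probe sets thus place the step down at different times.

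**Figure D2:**
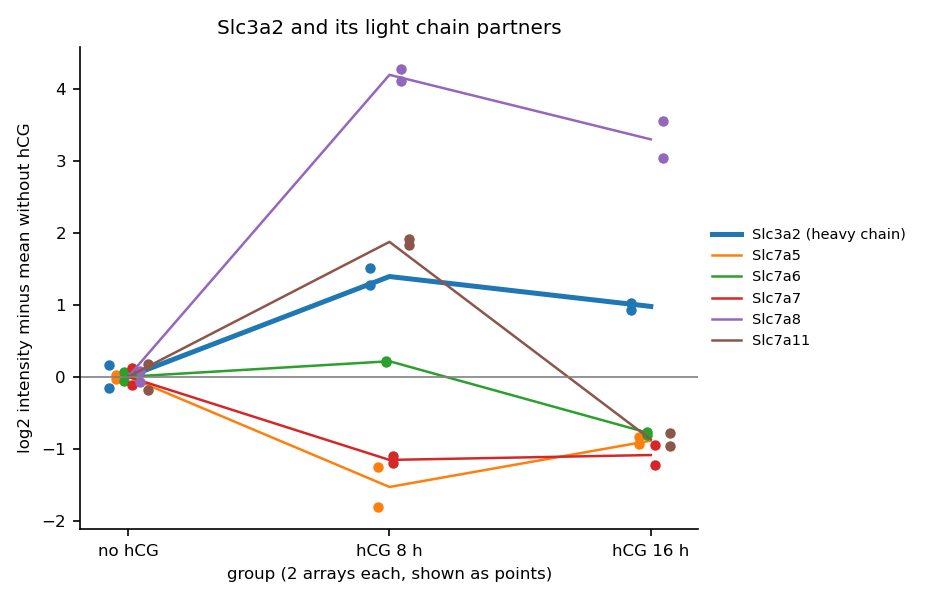
Log2 intensity minus the gene's mean without hCG (y axis) for the heavy chain Slc3a2 and 5 of its light chains, by group (x axis), with a point per array and a line through the means. At 8 h Slc7a8 sits at about 4.2, Slc7a11 and Slc3a2 lie above 0, and Slc7a5 and Slc7a7 lie below 0.

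Further light chains of Slc3a2 are on the list of other amino acid transporters. Slc7a8, which like Slc7a5 carries large neutral amino acids, read 7.74 and 7.59 without hCG, 11.78 and 11.94 at 8 h, and 11.22 and 10.7 at 16 h. This was the largest rise of that list at 8 h (log2 change 4.19 ± 0.20, adjusted p = 7.42e-07), and at 16 h it was still higher than without hCG by 3.30 ± 0.20. Slc7a7, the partner for cationic amino acids of epithelia and macrophages, was chosen here after its values were seen. It was lower at 8 h and at 16 h than without hCG, with log2 changes of −1.16 and −1.09. Slc7a10, another partner, was too dim to test. Differences between light chains were not tested, since levels of different probe sets are not comparable.

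Slc38a3, the system N carrier of glutamine, histidine and alanine, gave the largest fall of the 8 at 8 h. Probe set 1418706_at read 9.72 and 9.89 without hCG, 7.39 and 7.52 at 8 h, and 7.31 and 7.67 at 16 h. The 4 hCG arrays lay well below both arrays without hCG, and those of 8 h and 16 h overlapped. The signal was 5.10-fold lower at 8 h (adjusted p = 8.48e-06) and 4.97-fold lower at 16 h (adjusted p = 6.93e-06) than without hCG. The dimmer probe set 1446013_at, with group means of 6.76, 6.52 and 6.55, was not called in any comparison (log2 change −0.24 ± 0.18 at 8 h against no hCG). The oocyte markers fell beside Slc38a3 at 8 h, with a median log2 change of −2.15, and 3 of the 9 cumulus markers fell while 4 rose. From 8 h to 16 h, where Slc38a3 was not called, 4 of the 12 oocyte markers rose and 4 fell (median 0.15), and 2 of the 9 cumulus markers rose and 5 fell (median −0.83). Their part in the change of Slc38a3 was not tested.

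Slc38a1 and Slc38a2, the system A carriers of small neutral amino acids, moved by less than 1 on the log2 scale. The brighter Slc38a1 probe set, 1454764_s_at, read 10.66 and 11.11 without hCG, 10.46 and 10.69 at 8 h, and 10.1 and 10.65 at 16 h, and was not called in any comparison. Its suffix marks probes that can match more than 1 transcript. The probe set 1415903_at had closer replicates, 9.67 and 9.41, then 9.29 and 9.25, then 8.85 and 8.83, and was lower at 16 h than without hCG (−0.70 ± 0.16, adjusted p = 0.00586). Each array of a later time lay below each of an earlier one by this probe set.

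Slc38a2 rose slightly by its brightest probe set and fell by another. Probe set 1426722_at read 12.38 and 12.55 without hCG, 12.55 and 12.76 at 8 h, and 12.86 and 13.03 at 16 h, and was called higher at 16 h than without hCG (0.48 ± 0.16, adjusted p = 0.0423). Probe set 1429593_at read 10.62 and 9.69, then 9.67 and 8.93, then 9.30 and 9.05, and was called lower (−0.98 ± 0.32, adjusted p = 0.0353). The third, 1429594_at, was not called. No direction can be given for Slc38a2 as a gene, and the call of 1426722_at was lost when any of 5 of the 6 arrays was left out.

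Slc1a5, an exchanger of glutamine and other neutral amino acids, was lowest at 8 h. Probe set 1416629_at read 7.75 and 7.55 without hCG, 7.39 and 7.15 at 8 h, and 7.99 on both arrays at 16 h. The groups did not overlap. From 8 h to 16 h it rose 1.64-fold (adjusted p = 0.0132), a call lost without replicate 2 of the 8 h group (log2 change 0.59) or without either 16 h array (0.72). The log2 changes against no hCG, −0.37 ± 0.16 at 8 h and 0.34 ± 0.16 at 16 h, were not called. Its other probe set, 1440379_at, lay between 5.39 and 5.89, near the dim limit, and was not called.

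**Figure D3:**
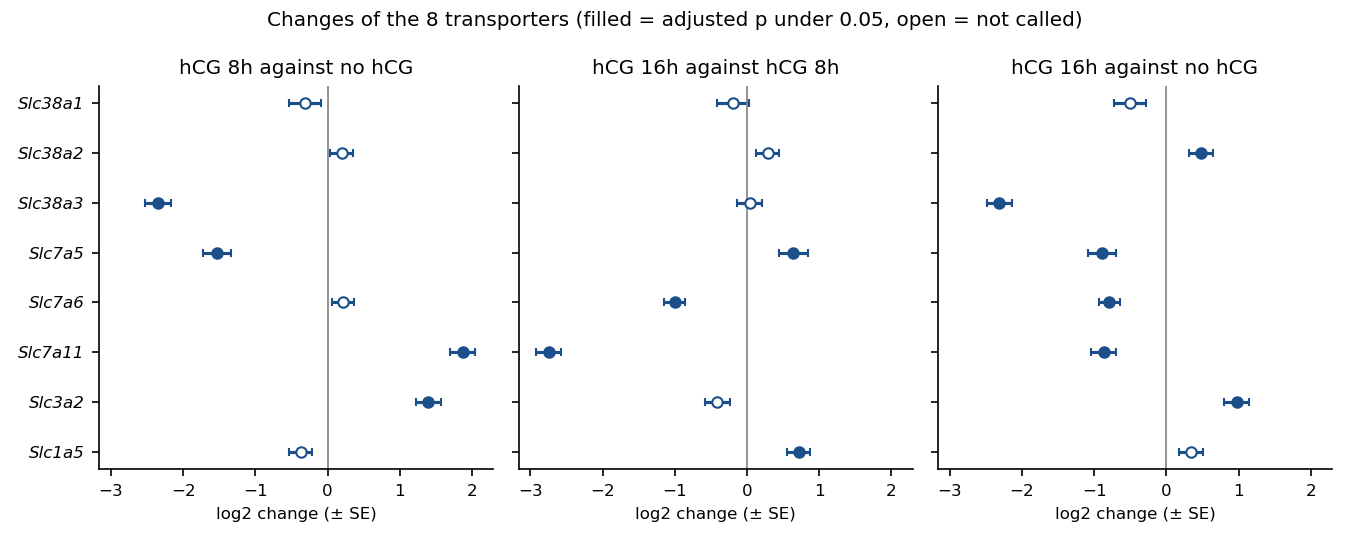
Log2 change ± SE (x axis, limma, 2 arrays per group) of the probe set used for each transporter (y axis) in the 3 comparisons; filled points have an adjusted p under 0.05 and open points are not called. Slc38a3 and Slc7a11 lie farthest from 0, with Slc38a3 at −2.35 in the first panel and −2.31 in the third and Slc7a11 at 1.87 and then −2.74.

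The log2 changes of other amino acid transporters ran from −2.33 to 4.19 at 8 h against no hCG. Those of the 8 ran from −2.35 to 1.87, but a longer list tends to a wider range by its length alone. Of 45 genes listed, 43 had a probe set with that symbol alone and 34 were bright enough to test. At 8 h against no hCG, 9 rose and 9 fell, with a median log2 change of 0.05. At 16 h against 8 h, 10 rose and 5 fell, with a median of 0.15, and at 16 h against no hCG 13 rose and 8 fell, with a median of 0.25. Over all genes 16.9% rose and 20.5% fell at 8 h, 11.8% rose and 9.12% fell from 8 h to 16 h, and 20.8% rose and 20.8% fell at 16 h against no hCG, with medians of −0.02, 0.01 and −0.02. The counts of the lists that follow stand beside these same shares and medians.

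The largest changes of this list at 8 h ran both ways. Beside Slc7a8, the taurine carrier Slc6a6 rose at 8 h by 1.84 ± 0.15 and at 16 h was above no hCG by 1.19 ± 0.15. Slc6a15, a carrier of branched-chain amino acids, was lower at 8 h than without hCG (log2 change −2.33 ± 0.17), as was Slc38a5, a system N carrier like Slc38a3 (−2.20 ± 0.15). Slc38a5 fell again from 8 h to 16 h (−1.34 ± 0.15) and had a log2 change of −3.54 ± 0.15 at 16 h against no hCG. It averaged 9.66 at 16 h, against 13.2 without hCG. Slc38a3 had no called change from 8 h to 16 h, and the difference between these genes was not tested.

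From 8 h to 16 h the largest rises were those of Slc36a2, Slc7a2 and Slc7a1. Slc7a1, the main carrier of arginine and lysine in many cells, rose from 8 h to 16 h by 1.29 ± 0.18, with another probe set of the gene in the same direction. The proton-coupled carrier Slc36a2 rose by 2.81 ± 0.15 in that interval and stood 3.67 ± 0.15 above no hCG at 16 h, where its mean without hCG, 5.72, was near the dim limit. Slc16a10, a carrier of aromatic amino acids, was 2.42 ± 0.16 above no hCG at 16 h. Slc7a2, another cationic carrier, rose from 8 h to 16 h by 1.32 ± 0.19, but its probe sets differ over the net change: the one used was higher at 16 h than without hCG (1.18) and 2 others were lower (−0.93 and −1.35).

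**Figure D4:**
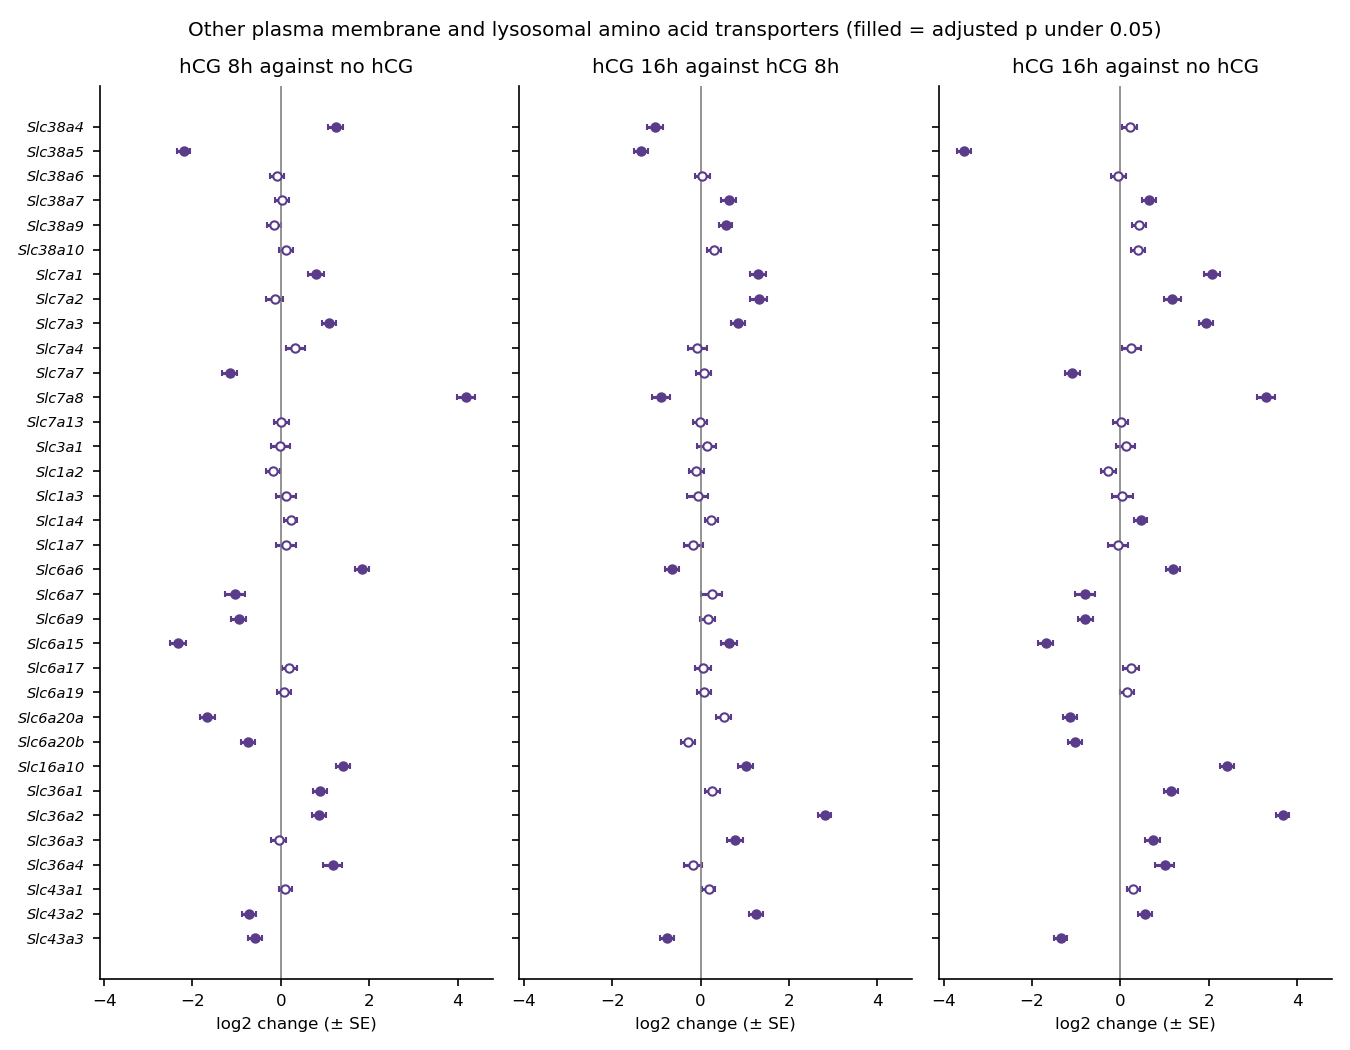
Log2 change ± SE (x axis, limma, 2 arrays per group) of the 34 tested genes of the list of other amino acid transporters (y axis) in the 3 comparisons; filled points have an adjusted p under 0.05. Slc7a8 lies farthest to the right at 8 h (4.19), Slc36a2 at 16 h (3.67), and Slc38a5 farthest to the left at 16 h (−3.54).

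Genes of glutathione synthesis and other NRF2 targets were counted because Slc7a11 supplies cystine for glutathione. Of 16 tested, 8 rose and 2 fell at 8 h, with a median log2 change of 0.65 (all genes 16.9% and 20.5%, median −0.02). From 8 h to 16 h, 3 rose and 3 fell, with a median of −0.13. Against no hCG, 7 were higher and 3 lower at 16 h, with a median of 0.11. Gclc, the catalytic subunit of the first enzyme of glutathione synthesis, had group means of 10.08, 11.86 and 9.96. Like both Slc7a11 probe sets it was highest at 8 h, but its change at 16 h against no hCG was not called (−0.12 ± 0.15). Gclc rose by 1.78 at 8 h, a value chosen after it was seen, and fell from 8 h to 16 h (−1.89 ± 0.15). Gclm, its modifier subunit, was not called at 8 h and fell afterwards (−0.87 ± 0.22). Glutathione synthetase Gss and glutathione reductase Gsr rose in that same interval, by 0.77 ± 0.20 and 1.45 ± 0.33, though another probe set of Gss was not called there (0.47). Sulfiredoxin Srxn1 rose by 2.61 ± 0.23 and malic enzyme Me1 by 1.82 ± 0.16 at 8 h, whereas Cbs, which starts the route from homocysteine to cysteine, was lower (−2.38 ± 0.15).

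On the list of genes that ATF4 drives in amino acid shortage, 9 of 22 tested rose and 2 fell at 8 h, with a median of 0.42 (all genes 16.9% and 20.5%, median −0.02). Gpt2, the mitochondrial alanine aminotransferase, rose by 2.96 ± 0.19 and fell from 8 h to 16 h (−3.40 ± 0.19), the stress gene Nupr1 rose by 2.91 ± 0.22, the mTORC1 inhibitor Ddit4 by 2.38 ± 0.22 and the transcription factor Cebpb by 1.93 ± 0.16. Atf4 itself rose by 0.74 at 8 h and fell from 8 h to 16 h (−0.63), while Trib3, Chac1, Asns and Ddit3, well-known targets of that response, were not called in any comparison (these 5 genes were chosen after their values were seen). From 8 h to 16 h, 2 of the 22 rose and 7 fell, and at 16 h against no hCG 7 rose and 5 fell, with medians of −0.15 and 0.16, where 11.8% and 9.12%, then 20.8% and 20.8%, of all genes did so.

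Genes that use the transported amino acids also moved in both directions. Of 14 tested genes of glutamine, glutamate and alanine metabolism, 5 rose and 2 fell at 8 h, 3 rose and 3 fell from 8 h to 16 h, and 4 rose and 1 fell at 16 h against no hCG. Glutamine synthetase Glul rose by 2.67 ± 0.21 at 8 h, and the branched-chain aminotransferase Bcat1 by 0.95 ± 0.17. The mitochondrial arginase Arg2 was lower at 8 h than without hCG (−2.73 ± 0.17) and lower again at 16 h (−4.50 ± 0.17 against no hCG). Of 24 tested genes of amino acid sensing and mTORC1, 3 rose and 1 fell at 8 h, 2 rose and 0 fell from 8 h to 16 h, and 3 rose and 0 fell at 16 h against no hCG. Calls either way were made for 37.4%, 20.9% and 41.6% of all genes in these comparisons. The Rag GTPase gene Rragd led them, with 4.90 ± 0.26 at 8 h and 4.85 ± 0.26 at 16 h, both against no hCG. Its other tested probe set rose by 1.04 at 8 h.

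The genes most alike to a member were taken as those with the smallest root mean square difference of log2 values, each centred on its own mean, over the 6 arrays. For Slc38a3 they were Dnah2, Fam78a and Plce1, at differences of 0.14, 0.14 and 0.15, beside a root mean square of 1.11 for Slc38a3 itself. For Slc7a11 they were Amigo2, Tmem100 and Rras2 (0.16, 0.17 and 0.20, beside 1.15). Slc3a2 was nearest to Akirin1, Il23a and Galnt16 (0.10, 0.10 and 0.11, beside 0.60), and Slc7a5 to Tmem30b, Pnma5 and Tfap2c (0.09, 0.09 and 0.10, beside 0.65). The same measure placed Dact1, Peg3 and Stk39 beside Slc7a6, and Ctsa, Rims2 and Snhg18 beside Slc1a5. It placed Minpp1, Tug1 and Dnaja3 beside Slc38a2, and B230308N11Rik, Zfp709 and Cep20 beside Slc38a1, both of which varied little.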

How the data were processed

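Per the labels' protocols, total RNA of pooled complexes was made into biotinylated cRNA. The deposited table held log2 intensities, a scale read from the values, and how the authors computed them is not given in the sources used here. Arrays were grouped by title. Of 45101 probe sets, 64 controls were left out. The platform annotation gave 34945 probe sets 1 symbol, 932 several and 9160 none, and no gene was named from several. Probe sets with a mean under the 40th percentile (5.62) were not tested, which left 27022 for 13559 genes, by the probe set with the highest mean. Group means of all 6 arrays were fitted with limma 3.58.1 in R 4.3.3 (lmFit, eBayes, two-sided, 3 residual and 6.43 prior degrees of freedom), after a test on simulated data. The number of arrays limits the precision, and no detection calls were used, so small signals may understate a change. Named genes were the 8 members and, of each related list and comparison, up to 4 called genes with the largest change. Members and lists were chosen with earlier results of these data known. Lists overlap: Slc6a6, Slc38a9, Sesn2, Eif4ebp1, Cth, Gpt2, Asns and Psat1 are each on more than 1. Alternatives were 2 normalizations, 2 dim filters, the compared groups alone, a replicate block, limma's trend, the mean of probe sets, removal of _s_at and _x_at probe sets, and leaving out each array. Protein sequences were not used here.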

Additional observations from a re-analysis of the deposited data

How the results depend on the processing

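Over 15 alternatives, the 24 log2 changes of members gave 360 values, of which 335 kept their side of the threshold and, where called, their direction. The calls of Slc38a3, Slc3a2, Slc7a11 and Slc7a5 at 8 h against no hCG held in all of them. So did those of Slc7a11 and Slc7a6 at 16 h against 8 h, and of Slc38a3, Slc3a2 and Slc7a6 at 16 h against no hCG. However, the mean of both Slc38a3 probe sets gave only −1.30 at 8 h and −1.26 at 16 h against no hCG. That of Slc7a6 gave −0.55 at 16 h against 8 h. Directions turned with the mean of all probe sets at 16 h against no hCG, for Slc38a2 (−0.21) and Slc7a11 (0.042), where probe sets of a gene disagree, and with the other called probe set of each (−0.98 and 0.95), a choice made after seeing the data that left 2 members higher and 4 lower. At 16 h against 8 h, the rise of Slc7a5 was not called after quantile normalization (0.61), with medians centred (0.66), without the dim filter (0.64) or without _s_at and _x_at probe sets (0.64), and ranged from 0.36 to 0.92 when single arrays were left out. Slc1a5 was not called by the mean of its probe sets (0.35), with 0.59 to 0.84 when arrays were left out. At 16 h against no hCG, Slc38a2 was not called after quantile normalization (0.34) or with the compared groups alone (0.48), with 0.40 to 0.56 without single arrays. There Slc38a1 became called with the mean of its probe sets (−0.60) and without _s_at and _x_at probe sets (−0.70), with −0.78 to −0.23 without single arrays, and Slc7a5, with −0.93 to −0.84, was not called without replicate 2 of the 16 h group. The count of members higher at 16 h against 8 h was 1 in place of 2 after quantile normalization, with medians centred, without the dim filter, with the mean of probe sets and without _s_at and _x_at probe sets, and 0 to 2 without single arrays. At 16 h against no hCG it was 1 in place of 2 after quantile normalization, with the compared groups alone and with the mean of probe sets, and 1 to 2 without single arrays. Called probe sets without single arrays numbered 6109 to 9450 at 8 h against no hCG (9167 with all), 2518 to 6340 at 16 h against 8 h (4922) and 7312 to 10345 at 16 h against no hCG (10072). Where a group was left with 1 array, its spread was taken from the other groups. The replicate numbers of the titles were not taken to pair the arrays, since nothing in the labels says what they share and the differences between replicates 1 and 2 correlated at 0.38 for 8 h with no hCG, but at −0.06 for 16 h with no hCG and 0.11 for 16 h with 8 h. With the replicate block, the called probe sets numbered 10117 at 8 h and 11045 at 16 h, both against no hCG, and 5812 at 16 h against 8 h. Of the members, Slc38a1 at 16 h against no hCG became called (−0.51) with this block. The members lower in that comparison were then 5 in place of 4.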
